A study of Mus musculus with 21 samples.

Results

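The subject is a set of 37 mouse genes of mitosis and chromosome segregation, followed in macrophages grown from bone marrow. The genes were matched by symbol in both deposited tables of values, and all 37 were found, among 50645 genes of one table and 50644 of the other. RNA-seq was run on 21 libraries in 7 groups of 3. All cells came from C57Bl6/J mice, with 24 weeks given by the labels as the donors' age, and were cultured with L929 cell supernatant, which supplies the growth factor on which marrow precursors divide and mature into macrophages. In the fatty acid table, 4 groups came from chow-fed donors: untreated (replicates 1 to 3), LPS alone, fatty acid before LPS, and fatty acid with TAK242 before LPS. Fatty acid was palmitic and oleic acid, 1:3, at 10 mM during the first 4 days, TAK242 was 200 nM of an inhibitor of the LPS receptor TLR4 over the same days, and LPS, a bacterial membrane lipid, was given at 100 ng/ml for 24 h from day 7. In the Western diet table, 3 groups were untreated cells of chow-fed donors (replicates 4 to 6), and cells of donors fed a Western diet, labelled as without or with the same LPS dose. Time on diet is given as 24 weeks for every group, chow groups included, the same figure as the donors' age. No group had fatty acid or TAK242 without LPS. The labels do not say whether a replicate is an animal or a culture, so p-values measure the spread between libraries, which may be technical.

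Mitosis is driven by cyclin-dependent kinase 1 bound to cyclins A and B, and it ends when the anaphase-promoting complex marks those cyclins for destruction. In between, kinetochores tie chromosomes to spindle microtubules, a checkpoint holds the cell until every chromosome is attached, and the central spindle then places the cleavage furrow. Many of these genes are transcribed late in the cell cycle and silent in resting cells, and marrow precursors divide in culture before they settle as macrophages.

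Values are printed as deposited, with no unit named in the sources used here, so each is called a deposited value. Library sums ran from 321532 to 386023, and 8803 to 10145 genes reached a value of at least 1. The 8 macrophage markers listed summed to 8741 to 10790 across the 12 libraries of the fatty acid table, and to 5847 to 15420 in the Western diet table. Lyz2 made up most of that sum, at 8087 ± 573.3 untreated and 7671 ± 489.9 with LPS. Single markers moved under it, by the calling rule given below. With LPS 5 of the 8 were called higher, beside 1444 of the 10476 genes tested, among them Adgre1 (358.8 ± 12.2 to 1296 ± 214.9). Cd68 was called lower (1192 ± 32.0 to 544.3 ± 32.9), as were 5019 of all genes. T and NK cell markers summed to at most 0.146 in any library. Several libraries of the Western diet table went against their LPS label. The LPS-induced chemokine gene Ccl5 stood at 7846, 13.7 and 10970 in replicates 1, 2 and 3 labelled without LPS, at 0.463, 10.5 and 6905 in those labelled with LPS, and at 2.06, 2.38 and 1.57 in the chow libraries. Results of that table are therefore given by label and library, with and without those libraries.

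The first comparison asks how LPS alters the 37 genes in macrophages of chow-fed mice. All 37 were lower with LPS, and in each of them every LPS library lay below every untreated library, which held for 50.1% of all genes tested. The median log2 change of the 37 was -4.11, against -0.31 for all genes tested, and with the libraries rescaled by median ratios it was -3.81 against 0.04. Adjusted p-values are from limma on log2(value + 1), with Benjamini-Hochberg adjustment over all genes, and a gene with an adjusted p under 0.05 is called. By that rule 37 of 37 were called lower, beside 47.9% of the 10476 genes tested. Over all genes 5019 were called lower and 1444 higher, or 2705 and 2977 after that rescaling, which moved the split but called the same number of the 37. Of the 37, 19 passed the filter on low values (at least 1 in 3 libraries) only through the untreated libraries, so for them a difference was built into the filter. With no filter at all, 37 of 37 were again called lower, beside 25.4% of 25319 genes. In bulk RNA, fewer dividing cells and less of these transcripts per cell cannot be told apart.

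As a share of the untreated mean, the level left with LPS had a median of 2.31% over the 37 genes. It ran from 0.447% for Cenpf to 11.7% for Cdca8, which is 223.5-fold to 8.57-fold lower. The median was 1.53% where fatty acid preceded LPS, and 3.55% where TAK242 was added to it. Against the same untreated libraries, 37 of 37 were called lower with fatty acid before LPS (44.9% of all genes) and 37 of 37 with fatty acid and TAK242 before LPS (43.9%). After rescaling by median ratios, the calls over all genes went from 4704 lower and 1591 higher to 2919 and 2996 in the first of these, and from 4600 and 1482 to 2652 and 2857 in the second, with 37 of 37 lower throughout. All 3 comparisons share their untreated libraries. For the 19 genes that passed the filter only through those libraries, a difference was built into the filter here too. With no filter, 37 of 37 were again called lower in both fatty acid comparisons, beside 6037 and 5806 of 25319 genes. The summed value of the 37 genes was 1345, 1461 and 1469 in the untreated libraries and 26.0, 44.9 and 46.0 with LPS. It was 32.2, 37.3 and 31.7 with fatty acid before LPS, and 54.7, 66.6 and 40.5 with TAK242 added.

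**Figure D1:**
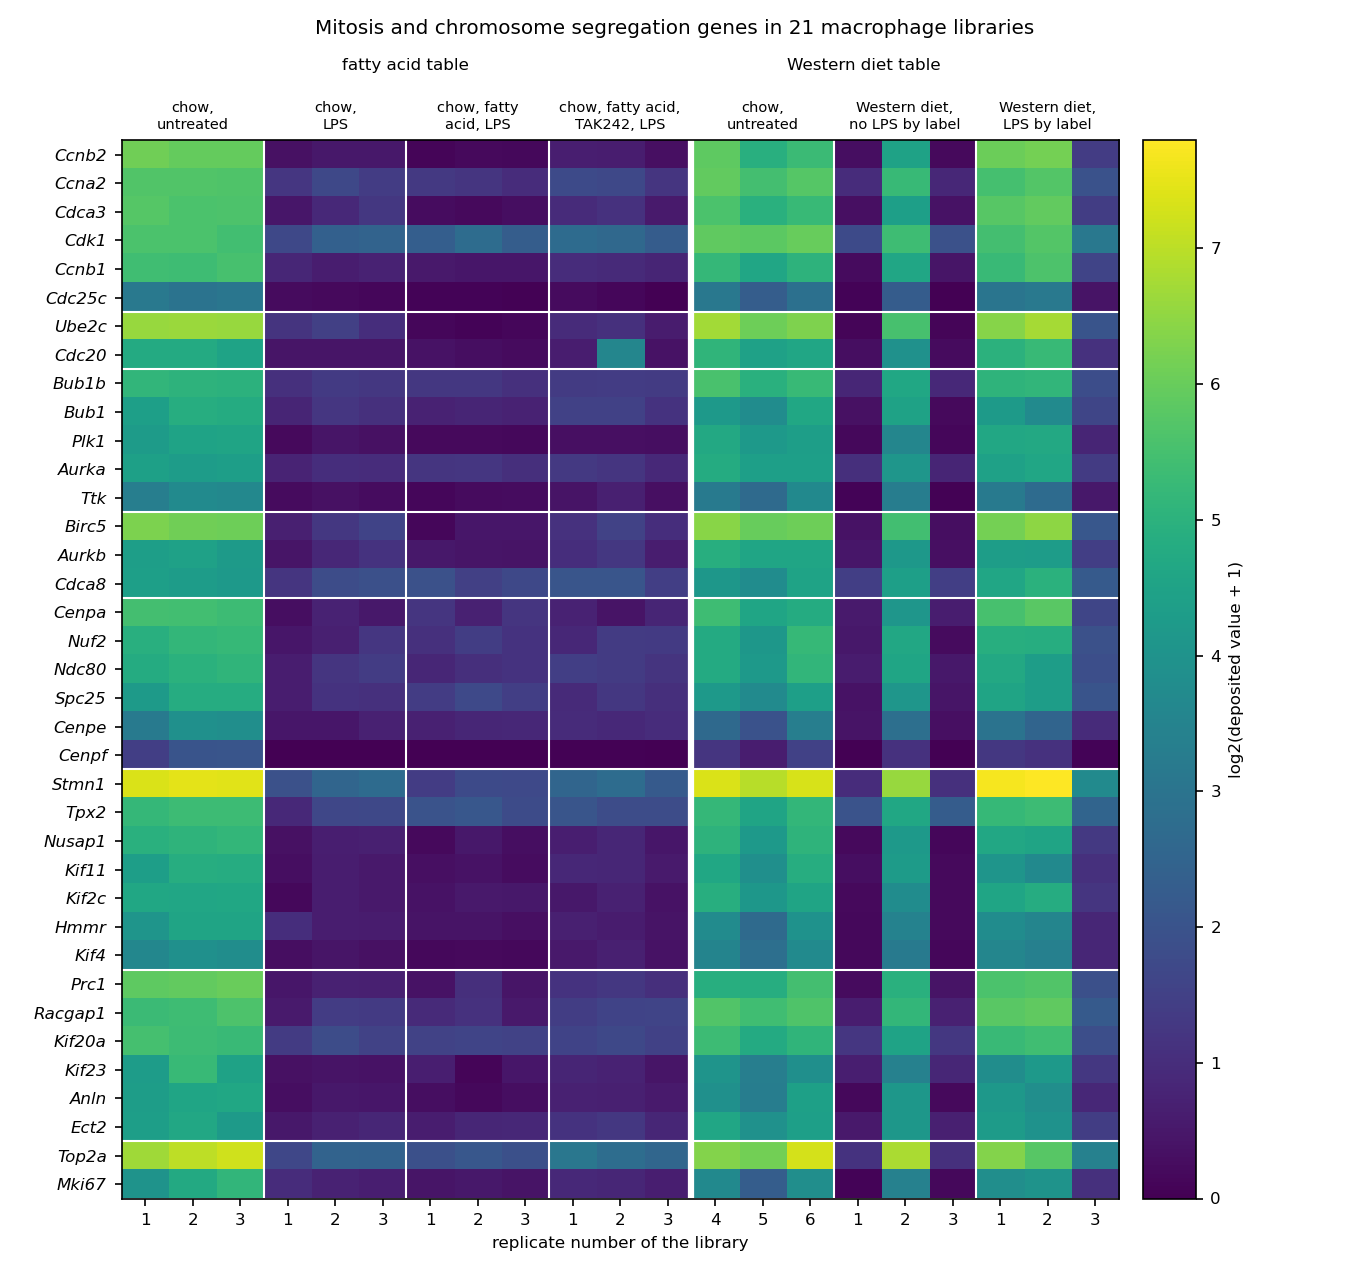
Heat map of log2(deposited value + 1) for the 37 genes (vertical axis, grouped by role) in all 21 libraries (horizontal axis, by group and replicate number). The untreated chow libraries are bright and the 9 LPS-treated libraries of the fatty acid table dark, while in the Western diet table replicates 1 and 3 labelled without LPS and replicate 3 labelled with LPS are dark.

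Markers of other cells moved between the same groups. Myeloid precursor markers (8 genes) summed to 1.25 to 1.60 in untreated libraries and to 0.0494 to 0.381 with LPS, and none of the 8 reached the filter. Stromal markers (8 genes) summed to 4.29 to 9.06 untreated, 14.3 to 34.0 with LPS, 5.11 to 7.09 with fatty acid before LPS and 13.9 to 16.7 with TAK242 added. B cell markers (5 genes) summed to 1.99 to 2.54 untreated, 0.0511 to 0.357 with LPS, 2.03 to 2.59 with fatty acid before LPS and 0.579 to 0.933 with TAK242 added. Neutrophil markers (6 genes) summed to 66.8 to 73.5 untreated and 51.5 to 145.4 with LPS, then 31.3 to 34.3 with fatty acid before LPS and 41.8 to 54.5 with TAK242 added. Against untreated cells, LPS gave higher calls for 4 of 4 stromal and 1 of 4 neutrophil markers tested and a lower call for the 1 B cell marker tested. Over all 10476 genes, 5019 were called lower and 1444 higher. Against LPS alone, fatty acid gave lower calls for 2 of 4 neutrophil and 3 of 4 stromal markers (15.3% of all genes) and a higher call for the B cell marker (21.8%). With TAK242 added to fatty acid, 2 of 4 stromal markers were called higher (3.01% of all genes) and the B cell marker lower (176 of 10476 genes). The part of these cells in the results was not tested.

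The promoters of the 37 genes were read for elements that textbooks place in promoters of late cell cycle genes. These are the CHR (cell cycle genes homology region), searched as TTTGAA or TTCGAA, and the CCAAT box bound by NF-Y, searched as CCAAT, each on both strands. RefSeq promoter sequences (GRCm38.p6, 250 bases before to 50 after the start, the first entry of each gene) were at hand for 31 of the 37. Those of Ccna2, Cdc25c, Aurkb, Tpx2, Stmn1 and Kif20a were not at hand. A CHR was found in 26 of 31 (83.9%), against 19.4% of all 27025 promoters and 14.5% of the 7564 promoters of genes tested. At least 1 CCAAT box was found in 25 of 31 (80.6%), against 37.9% of all promoters and 39.5% of those of genes tested. At least 2 were found in 18 of 31 (58.1%), against 12.2% and 15.9%. Both elements occurred in 23 of 31 (74.2%), against 7.70% and 6.44%. The CHR count rested on the bases after the start: within the 250 bases before it, 10 of 31 (32.3%) held one, against 17.4% of all promoters. Within those 250 bases both elements occurred in 9 of 31 (29.0%), against 6.21% of all promoters. The 37 were picked as mitosis genes, the class in which these elements are described. Their shares therefore describe the list and not its response to LPS. A match of letters is a description and does not show that a factor binds.

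No CHR was found in the promoters of Birc5, Ccnb1, Cenpe, Nuf2 and Nusap1. Their log2 changes with LPS were -4.973, -4.693, -3.107, -4.315 and -4.511, in that order. A relation between the CHR and the size of the fall was not tested. The 6 promoters below are, of those with a CHR, the ones with the largest falls with LPS in log2(value + 1). By share of the untreated level the order differs, and Cenpf, which has a CHR and is not among the 6, kept the least, 0.447%. The 6 are printed 5′ to 3′ on the gene's strand from 120 bases before the RefSeq start to 30 after it. Capitals mark the letters of the CHR and of CCAAT boxes, as searched or as their reverse complement. In Cdca3 the element lies further past the start, so its promoter is given up to the start, where a CCAAT box is cut, and a second stretch of 30 bases shows the element.
Ccnb2, chr9:70421525-70421674, minus strand: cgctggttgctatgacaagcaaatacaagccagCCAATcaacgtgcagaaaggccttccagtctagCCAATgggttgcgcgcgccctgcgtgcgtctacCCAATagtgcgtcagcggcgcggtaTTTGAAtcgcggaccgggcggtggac
Ube2c, chr2:164769809-164769958, plus strand: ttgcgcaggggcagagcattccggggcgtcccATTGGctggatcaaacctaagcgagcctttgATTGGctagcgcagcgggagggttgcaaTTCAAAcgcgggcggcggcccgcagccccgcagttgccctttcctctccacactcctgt
Prc1, chr7:80294331-80294480, plus strand: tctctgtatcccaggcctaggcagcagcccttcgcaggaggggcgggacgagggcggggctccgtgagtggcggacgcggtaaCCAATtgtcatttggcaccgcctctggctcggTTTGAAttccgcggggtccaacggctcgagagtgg
Cenpa, chr5:30666766-30666915, plus strand: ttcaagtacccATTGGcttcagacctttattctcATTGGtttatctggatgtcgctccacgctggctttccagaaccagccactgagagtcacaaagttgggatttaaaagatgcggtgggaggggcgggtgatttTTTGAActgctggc
Cdca3, chr6:124830056-124830175, plus strand: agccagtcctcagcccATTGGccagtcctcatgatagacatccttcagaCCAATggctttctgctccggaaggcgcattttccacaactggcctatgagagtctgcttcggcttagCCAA
Cdca3 element, chr6:124830194-124830223, plus strand: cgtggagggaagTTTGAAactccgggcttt
Top2a, chr11:99024160-99024309, minus strand: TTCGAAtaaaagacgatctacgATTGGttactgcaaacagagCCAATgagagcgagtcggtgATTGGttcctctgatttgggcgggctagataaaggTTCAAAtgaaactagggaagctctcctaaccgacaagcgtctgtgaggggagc
The Ccnb2 stretch shows 3 CCAAT boxes on its own strand before a CHR that begins 5 bases after the start. Within the bases printed for Ube2c, both CCAAT boxes and the CHR lie on the other strand. Prc1 has 1 CCAAT box ahead of a CHR that spans the start, and Top2a has 3 CCAAT boxes between CHR letters.

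Among the genes of mitotic entry, all 6 fell (median log2 change -4.47). Ccnb2, which encodes cyclin B2 (chromosome 9, 70407692 to 70421547, minus strand, GRCm38), stood at 67.8, 61.5 and 60.4 untreated and at 0.270, 0.427 and 0.403 with LPS. Its log2 change of -5.56 ± 0.10 (SE, adjusted p = 3.11e-11) was the largest fall among the 37, with the groups far apart. Ccna2, the cyclin A2 gene (chromosome 3, 36564865 to 36572150, minus strand), went from 50.1, 50.2 and 49.4 to 1.35, 2.19 and 1.60 (-4.24 ± 0.15, adjusted p = 3.44e-09). It shares 510 exon bases with Exosc9 on the opposite strand, and since the strand handling of the counting is not stated, reads of the pair cannot be told apart there. Cdk1, the kinase that both cyclins activate, kept more of its level, at 8.12% of the untreated mean (45.5 ± 2.43 against 3.70 ± 1.26, SD, n = 3). Ccnb1, the cyclin B1 gene, and Cdca3, a mitotic entry factor, kept 1.59% and 1.78%. Cdc25c, the phosphatase that switches on Cdk1, went from 7.36 ± 0.446 to 0.135 ± 0.0315 and overlaps Gm3550.

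Both partners of the anaphase-promoting complex fell. Ube2c, the ubiquitin-conjugating enzyme that works with the complex (chromosome 2, 164769898 to 164778822, plus strand), stood at 94.8, 96.6 and 95.3 untreated and at 1.23, 1.801 and 1.03 with LPS. The change was -5.37 ± 0.14 (adjusted p = 3.38e-10). Cdc20, the activator that brings the complex its substrates (chromosome 4, 118432901 to 118437352, minus strand), went from 26.0, 26.0 and 22.1 to 0.354, 0.360 and 0.371, values close together within the LPS group. Its change of -4.24 carries a wide SE of 0.63 (adjusted p = 0.000159). The spread comes from the group with TAK242, where Cdc20 stood at 0.549, 11 and 0.309. Its neighbour Elovl1, which shares 53 exon bases with it on the opposite strand, stood at 32.5, 36.3 and 32.4 in those libraries.

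The 5 mitotic kinases and checkpoint genes fell by a median of 3.64 on the log2 scale. Bub1b, which encodes the checkpoint protein BubR1 (chromosome 2, 118598211 to 118641591, plus strand), went from 34.3, 31.6 and 30.9 to 1.13, 1.52 and 1.42 (-3.82 ± 0.09, adjusted p = 1.78e-10). Bub1, the checkpoint kinase of the kinetochore (chromosome 2, 127801122 to 127831865, minus strand), went from 20.1, 27.8 and 26.9 to 0.736, 1.36 and 1.13 (-3.64 ± 0.15, adjusted p = 9.41e-09). In both genes the lowest untreated library was many times the highest LPS library. Plk1, the polo-like kinase of centrosomes and kinetochores, kept 1.27% of its untreated mean, the least of the 5, and Aurka, the spindle pole kinase Aurora A, kept 4.66%, the most. Ttk, the kinase that starts the checkpoint signal, kept 1.94%.

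In the chromosomal passenger complex, which corrects faulty attachments and later guides cytokinesis, all 3 members measured fell. Birc5, which encodes survivin (chromosome 11, 117849251 to 117855743, plus strand), went from 75.1, 67.9 and 66.2 to 0.597, 1.38 and 1.99 (-4.97 ± 0.21, adjusted p = 1.02e-08). Aurkb, the kinase of the complex (chromosome 11, 69045647 to 69051664, plus strand), went from 19.9, 20.9 and 18 to 0.359, 0.822 and 1.20 (-3.55 ± 0.18, adjusted p = 3.92e-08). Cdca8, which encodes borealin (chromosome 4, 124918465 to 124939311, minus strand), stood at 20.1, 18.8 and 17.4 untreated and 1.29, 2.52 and 2.76 with LPS. The change of Cdca8 was -2.66 ± 0.21 (adjusted p = 1.28e-06), and as a share of the untreated level it was the least reduced of the 37. The shares left for these subunits were 1.90%, 4.05% and 11.7% in that order.

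The 6 centromere and kinetochore genes fell by a median of 3.79 on the log2 scale. Cenpa, the histone variant that marks centromeres (chromosome 5, 30666777 to 30674830, plus strand), went from 43.4, 42.2 and 39.6 to 0.225, 0.670 and 0.409 (-4.91 ± 0.16, adjusted p = 1.66e-09). Nuf2, a subunit of the microtubule-binding Ndc80 complex (chromosome 1, 169497934 to 169531464, minus strand), went from 29.3, 34.8 and 36.6 to 0.372, 0.615 and 1.34 (-4.32 ± 0.20, adjusted p = 1.79e-08). The other members of that complex measured, Ndc80 and Spc25, kept 3.78% and 3.94% of their untreated means, and Nuf2 kept 2.31%. Cenpe, the kinetochore motor, kept 3.95%. Cenpf, a large kinetochore protein gene (chromosome 1, 189640606 to 189688086, minus strand), had the smallest log2 change, -1.82 ± 0.13 (adjusted p = 4.79e-07), yet the smallest share left. It stood at 1.75, 3.05 and 3.15 untreated and 0.0149, 0.0100 and 0.0106 with LPS, so the added 1 in log2(value + 1) sets the size of its change.

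All 7 spindle motors and microtubule-binding genes fell (median log2 change -4.20). Stmn1, which encodes the tubulin-binding protein stathmin (chromosome 4, 134468320 to 134473843, plus strand), went from 162.5, 175.5 and 174.8 to 2.79, 4.78 and 5.66 (-5.03 ± 0.20, adjusted p = 6.72e-09). Tpx2, the activator of Aurora A on spindle microtubules (chromosome 2, 152847964 to 152895321, plus strand), went from 35.3, 39.2 and 39.8 to 0.877, 2.16 and 2.22 (-3.87 ± 0.19, adjusted p = 2.36e-08). The kinesins Kif11, which pushes spindle poles apart, Kif2c, which depolymerises microtubules, and Kif4, a chromosome-borne motor, kept 1.62%, 1.53% and 2.22%. Nusap1 and Hmmr, which bind spindle microtubules, kept 1.47% and 3.45%. Kif4 shares exon bases with Pdzd11 and Nusap1 with Oip5, each on the opposite strand.

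The 6 midzone and cytokinesis genes fell by a median of 4.21 on the log2 scale. Prc1, which bundles antiparallel microtubules of the midzone (chromosome 7, 80294450 to 80316259, plus strand), went from 57.7, 60.0 and 63.3 to 0.377, 0.633 and 0.622 (-5.32 ± 0.16, adjusted p = 7.67e-10). Racgap1, a subunit of centralspindlin (chromosome 15, 99620496 to 99651656, minus strand), went from 39.1, 40.9 and 48.5 to 0.468, 1.62 and 1.49 (-4.36 ± 0.22, adjusted p = 2.96e-08). Prc1 shares 911 exon bases with Rccd1 on the opposite strand, which itself went from 15.7 to 0.866. Kif23, the motor subunit of centralspindlin, kept 1.16%, and Ect2, the exchange factor it recruits to the furrow, kept 2.98%. Anln, an actin-binding scaffold of the furrow, kept 1.53%, and Kif20a, a midzone kinesin that overlaps Cdc23 by 1271 exon bases, kept 4.95%.

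The 2 genes of the mitotic chromosome itself fell as well. Top2a, the topoisomerase that untangles sister chromatids (chromosome 11, 98992943 to 99024189, minus strand), went from 101.1, 127.6 and 148.5 to 2.17, 4.61 and 4.51 (-4.76 ± 0.23, adjusted p = 2.16e-08). Mki67, the coat of mitotic chromosomes and the usual marker of dividing cells (chromosome 7, 135689784 to 135716361, minus strand), went from 15.1, 25.7 and 34.2 to 1.00, 0.665 and 0.582 (-3.83 ± 0.23, adjusted p = 1.17e-07). Both varied more among untreated libraries than most of the 37 but did not overlap with LPS.

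**Figure D2:**
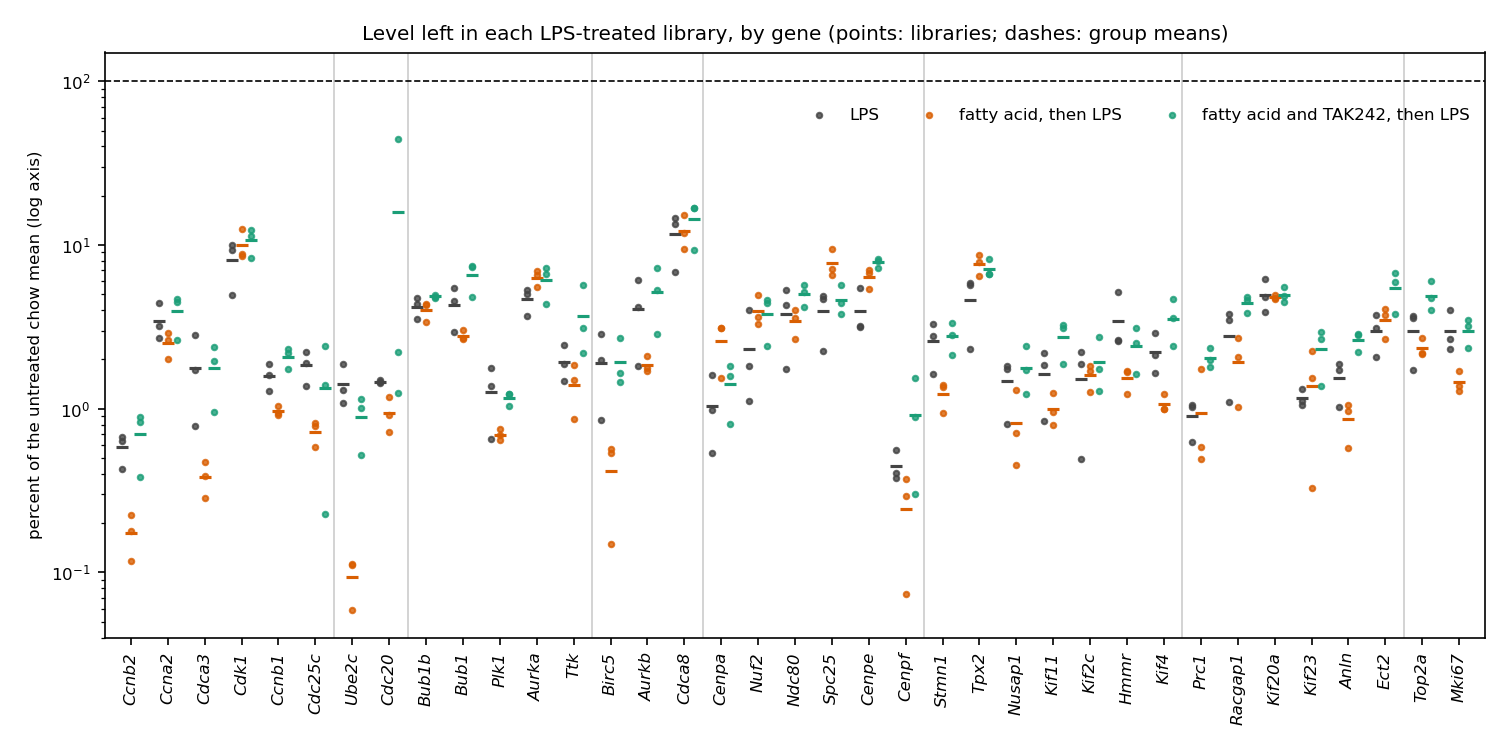
Percent of the untreated chow mean left in each LPS-treated library (log axis) for the 37 genes in order of role, with 3 points and a dash for the mean per group, and 100 as the dashed line. The points lie between 0.0586% and 17%, apart from Cdc20 at 44.5% in 1 library with TAK242, and Ube2c with fatty acid lies lowest.

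Genes outside the 37 were read from lists of the same process, and their counts stand beside the 47.9% of all genes called lower. Of 77 other mitosis and segregation genes tested (81 listed), 75 were called lower with LPS and 0 higher, with a median log2 change of -2.45. Examples are Ckap2l, a spindle protein gene (10.5 ± 0.420 to 0.210 ± 0.0769), Spag5, a spindle and kinetochore protein gene (21.3 ± 0.480 to 0.492 ± 0.146), Cdkn3, a phosphatase gene that acts on cyclin-dependent kinases (33.9 ± 2.59 to 0.326 ± 0.0933), and Cep55, an abscission gene (11.9 ± 0.690 to 0.239 ± 0.0974). The 2 exceptions, named after their values were seen, were Pttg1, which encodes securin (17.3 ± 2.13 and 26.6 ± 7.48, adjusted p = 0.0616), and the kinetochore gene Zwint (46.3 ± 1.69 and 41.6 ± 12.6, adjusted p = 0.322). Of 23 DNA replication genes 21 were called lower (median -2.0), among them Pcna, the polymerase clamp, from 342.0 ± 17.4 to 85.9 ± 16.3. Of 20 cohesin and anaphase-promoting complex core genes, which cells also use outside mitosis, 14 were called lower (median -0.63).

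Lists of cell cycle regulators were read in the same way, against the same 47.9% of all genes. Of 14 tested genes of the DREAM and MuvB complexes and their partners, which repress or activate promoters with CHR elements, 11 were called lower with LPS and 0 higher (median -0.94). Foxm1, an activator of late cell cycle genes, went from 6.66 ± 1.65 to 0.240 ± 0.213 (-2.62, adjusted p = 4.03e-07), and Mybl2, its partner, from 4.41 ± 0.638 to 0.873 ± 0.292 (-1.54, adjusted p = 4.78e-05). Of 14 genes of the first gap phase 10 were called lower (median -1.28), including Ccnd1, the cyclin D1 gene (18.1 ± 2.68 to 3.75 ± 1.62, adjusted p = 1.90e-05). Of 4 inhibitors of cyclin-dependent kinases tested 3 were called lower, and Cdkn1a, which encodes p21, stood at 27.3 ± 4.55 and 27.6 ± 5.98 (adjusted p = 0.994). The 10 genes of the LPS response list were all called higher, with a median of 7.39, beside 1444 of the 10476 genes tested called higher.

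**Figure D3:**
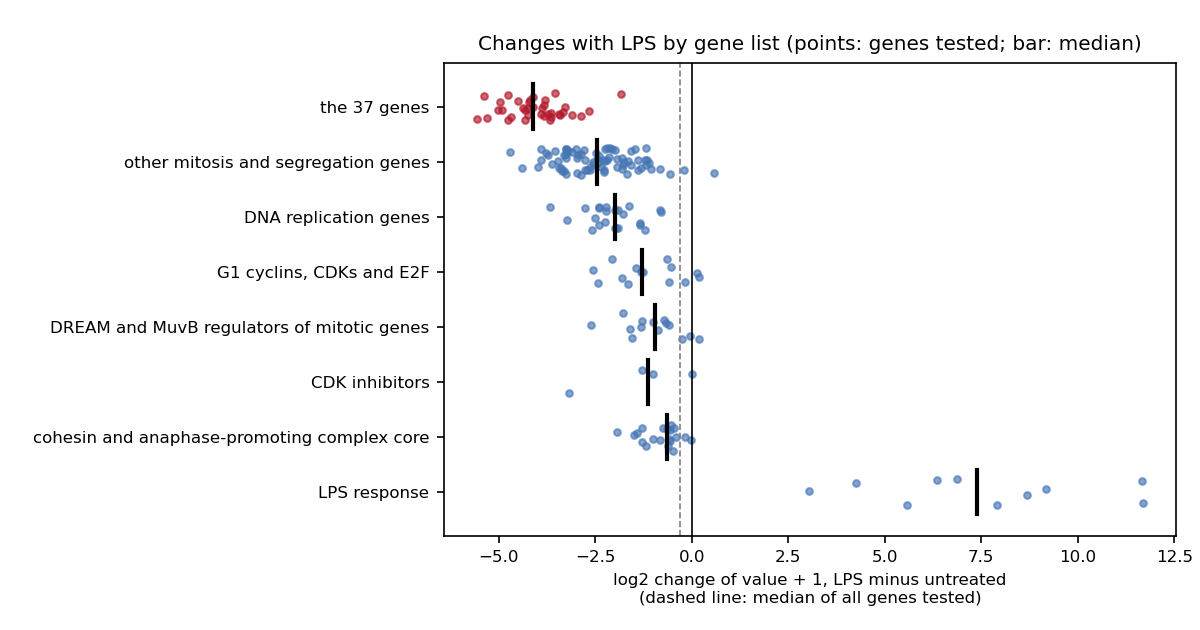
Log2 change of value + 1, LPS minus untreated, for each gene tested (points) in 8 lists, with medians as bars, a solid line at 0 and the median of all genes as a dashed line. The 37 genes centre on -4.11, other mitosis genes on -2.45, DNA replication genes on -2.0, and the LPS response list lies to the right at 7.39.

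Cells given fatty acid ahead of LPS were next compared with cells given LPS alone, at levels that were already low. Of the 37, 6 were called lower with fatty acid (15.3% of all genes were) and 3 higher (21.8% of all genes were), and the median log2 change was -0.14 against 0.06 for all genes. Ube2c stood at 0.107, 0.0560 and 0.105 with fatty acid against 1.23, 1.801 and 1.03 without, a change of -1.10 ± 0.14 (adjusted p = 0.000555). Birc5 stood at 0.105, 0.397 and 0.376 against 0.597, 1.38 and 1.99 (-0.81 ± 0.21, adjusted p = 0.0134). In both genes every fatty acid library lay below every library with LPS alone. Both calls survived leaving out any 1 of the 6 libraries, at adjusted p of 0.000368 to 0.00333 for Ube2c and 0.00236 to 0.0496 for Birc5.

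The other calls depended on single libraries. Stmn1 went from 2.79, 4.78 and 5.66 to 1.61, 2.40 and 2.33 with fatty acid (-0.77, adjusted p = 0.0134), and its call was lost without fatty acid replicate 1 (adjusted p = 0.0502). Cdca3 went from 0.382, 0.850 and 1.39 to 0.190, 0.139 and 0.231 (-0.62, adjusted p = 0.0236), Ccnb2 from 0.270, 0.427 and 0.403 to 0.0738, 0.142 and 0.114 (-0.30, adjusted p = 0.0375), and Ccnb1 from 0.794, 0.538 and 0.676 to 0.438, 0.395 and 0.388 (-0.24, adjusted p = 0.0445). Each of these mitotic entry genes was lost without any 1 of 5 libraries, and the adjusted p reached 0.0687, 0.108 and 0.124. The 3 genes called higher, beside 21.8% of all genes, were Spc25 and Cenpa of the kinetochore role and Tpx2 of the spindle role. Stmn1, called lower, is of the spindle role too. Spc25 went from 0.548, 1.19 and 1.13 to 1.59, 2.31 and 1.74 (0.57, adjusted p = 0.0346), Tpx2 from 0.877, 2.16 and 2.22 to 3.02, 3.31 and 2.46 (0.55, adjusted p = 0.0380), and Cenpa from 0.225, 0.670 and 0.409 to 1.29, 0.639 and 1.30 (0.53, adjusted p = 0.0248). All 3 were lost without LPS replicate 1 and without at least 1 of the fatty acid libraries, and the groups of Cenpa overlap. The other 28 genes, Cdk1, Top2a and Mki67 among them, did not pass.

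The effect of adding TAK242 to the fatty acid was read in cells that all went on to LPS. Of the 37, 6 were called higher with TAK242, beside 3.01% of all genes, and 0 lower. The median log2 change was 0.31, against -0.00 for all genes. Of the 37 changes, 32 were positive, but the genes share their libraries, so this count is only a description. Stmn1 stood at 4.84, 5.72 and 3.63 with TAK242 and 1.61, 2.40 and 2.33 without (0.87 ± 0.20, adjusted p = 0.0392). Birc5 stood at 1.15, 1.89 and 1.01 against 0.105, 0.397 and 0.376 (0.85 ± 0.21, adjusted p = 0.0482), and Ube2c at 0.962, 1.10 and 0.499 against 0.107, 0.0560 and 0.105 (0.75 ± 0.14, adjusted p = 0.0190). In these genes no library with TAK242 overlapped the fatty acid group. Bub1 stood at 1.86, 1.82 and 1.19 against 0.669, 0.755 and 0.664 (0.62, adjusted p = 0.0474), Ccnb1 at 0.972, 0.920 and 0.738 against 0.438, 0.395 and 0.388 (0.41, adjusted p = 0.0278), and Anln at 0.636, 0.625 and 0.489 against 0.214, 0.127 and 0.232 (0.41, adjusted p = 0.0412).

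The number of these calls depended on single libraries. Of the 37, 0 were called without fatty acid replicate 3, without TAK242 replicate 1 or without TAK242 replicate 2, 1 was called without fatty acid replicate 1 or 2, and 5 without TAK242 replicate 3. The median change of the 37 ran from 0.21 to 0.40 over these 6 fits, and the higher calls over all genes from 37 to 243, where the full fit gave 315. Ube2c kept its call in 2 of the 6 fits and Anln and Birc5 in 0. Unadjusted p was under 0.05 for 19 of the 37, and for 2415 of the 10476 genes. Cdc20, with its single value of 11, changed by 1.24 (adjusted p = 0.270), and by 0.21 without that library. Top2a stood at 7.55, 5.92 and 5.01 against 2.71, 3.38 and 2.76, without overlap, at an adjusted p of 0.0587. The comparison shares the fatty acid libraries with the one before it, so no relation between them is given.

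Against LPS alone, fatty acid with TAK242 gave 0 calls among the 37 with limma, where 4.05% of all genes were called higher. Unadjusted p was under 0.05 for 8 of the 37 and for 3122 of the 10476 genes, the median change was 0.17, and without LPS replicate 3 there was 1 call. Rescaling by median ratios turned the 193 lower and 424 higher calls over all genes into 528 and 458, and gave 0 among the 37. Prc1, the gene closest to the threshold, stood at 1.20, 1.41 and 1.08 against 0.377, 0.633 and 0.622 (0.53 ± 0.16, adjusted p = 0.0671). A p that misses the threshold does not show equal levels.

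**Figure D4:**
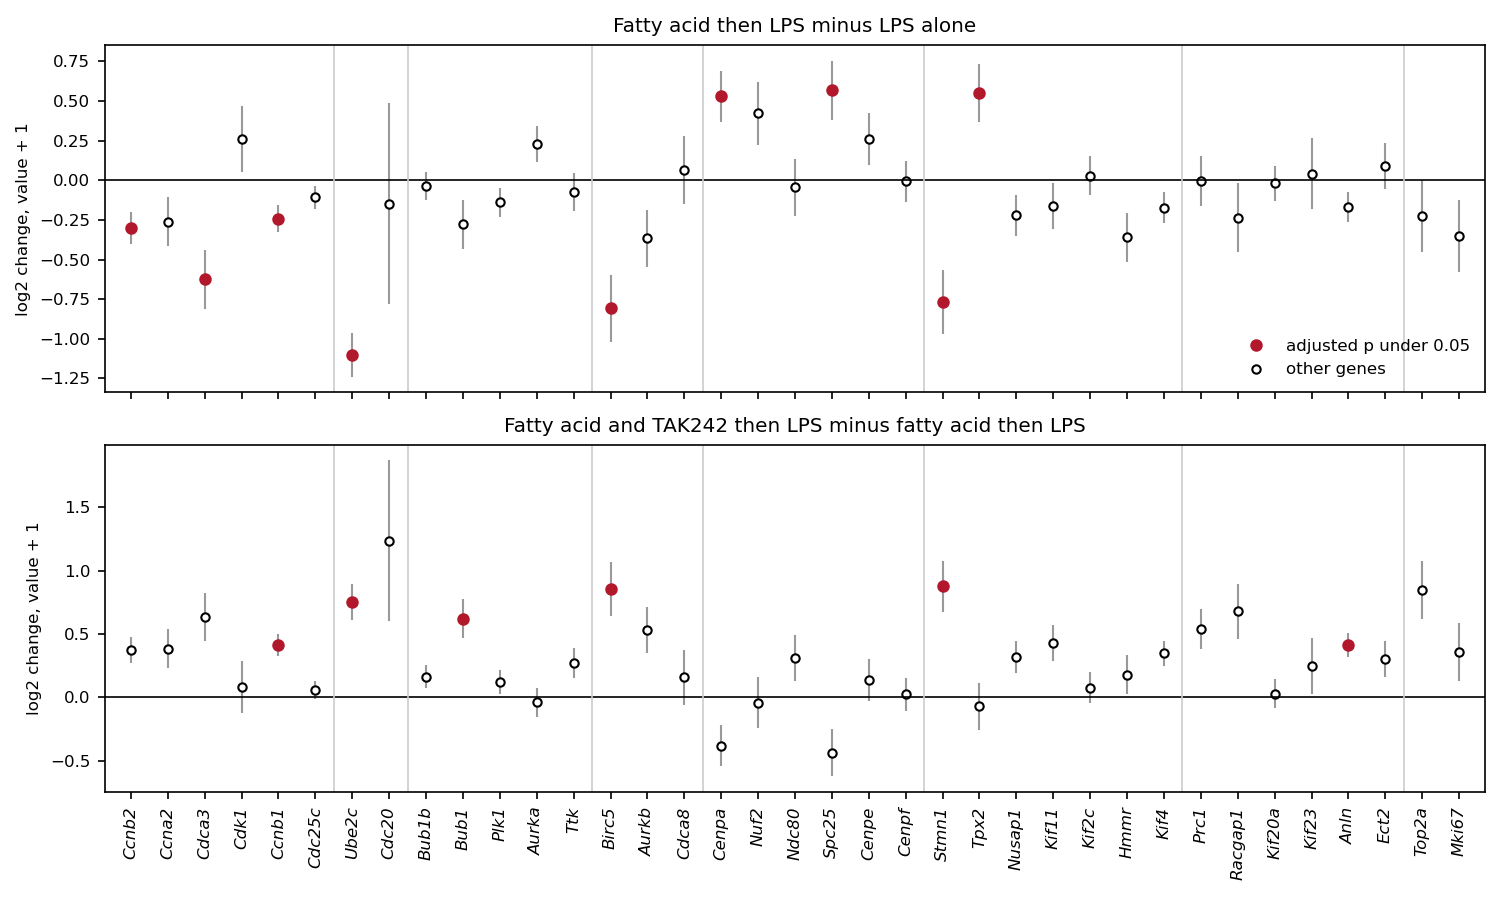
Log2 change of value + 1 with its standard error for the 37 genes in order of role, above for fatty acid then LPS minus LPS alone and below for fatty acid and TAK242 then LPS minus fatty acid then LPS. Filled points have an adjusted p under 0.05: 6 lie below 0 and 3 above it in the upper panel, and 6 above 0 in the lower one, where Cdc20 has the widest bar.

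In the Western diet table the 37 genes were high or low with Ccl5 and not with the LPS label. As a median percent of the mean of the chow libraries, the replicates labelled without LPS stood at 1.19%, 76.3% and 1.05%, and those labelled with LPS at 114.3%, 116.5% and 6.97%. The chow libraries themselves stood at 115.7%, 73.9% and 107.3%. The 3 libraries with Ccl5 of 6905 or more were the 3 in which the genes were low. Ccnb2 stood at 0.233, 21.5 and 0.143 in the libraries labelled without LPS, 64.3, 71.3 and 1.60 in those labelled with LPS, and 56.9, 29.4 and 39.1 in chow. Stmn1 stood at 0.975, 96.3 and 1.13, then 205.8, 221.2 and 12.2, against 161.2, 124.3 and 158.9. Top2a stood at 1.21, 111.8 and 1.10, then 80.5, 54.2 and 9.73, against 80.2, 69.1 and 155.9. In both labelled groups some libraries lay near the chow level and the others far below it. Myeloid precursor markers summed to 4.47 to 6.17 in chow, 0.0109 to 1.78 in the libraries labelled without LPS and 0.316 to 2.40 in those labelled with LPS, and stromal markers to 0.130 to 0.623, 2.36 to 6.03 and 1.32 to 2.47. In the same order, B cell markers summed to 1.895 to 3.118, 0.1623 to 1.158 and 1.215 to 1.981. Neutrophil markers summed to 6.445 to 10.0, 2.288 to 7.09 and 21.94 to 30.93, so in these the libraries labelled with LPS lay above all others. The part of these cells here was not tested. Cdc25c and Cenpf were listed at 0 in replicate 3 labelled without LPS.

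By label, limma called 0 of the 37 in each of the 3 comparisons of this table. For Western diet without LPS against chow the median change was -2.88 (0.165% of all genes were called lower), and 25 of the 37 had an unadjusted p under 0.05, as did 2825 of 10331 genes. For Western diet with against without LPS the median was 1.83 (0.678% of all genes were called higher), and 0 of the 37 had an unadjusted p under 0.05, where 1779 genes did. For Western diet with LPS against chow the median was -0.94 (0.619% of all genes were called lower), and 0 of the 37 had an unadjusted p under 0.05, where 1304 genes did. A single library decided the first and second of these counts, while the last stayed at 0 with any 1 of its 6 libraries left out. Without replicate 2 labelled without LPS, 37 of 37 were called lower than chow, beside 44.4% of all genes. In the same way 31 of 37 were called higher with than without LPS, beside 29.8%. That left only replicates 1 and 3 labelled without LPS, with Ccl5 of 7846 and 10970, which go against their label. In the second comparison replicates 1 and 2 labelled with LPS go against theirs as well. What part diet has in these calls was not tested. Without the 4 libraries that go against their label the medians were -0.33, -2.75 and -3.18, so the middle one changed sign. They rest on lone libraries and are given as values only, because the libraries left out were picked by their Ccl5.

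**Figure D5:**
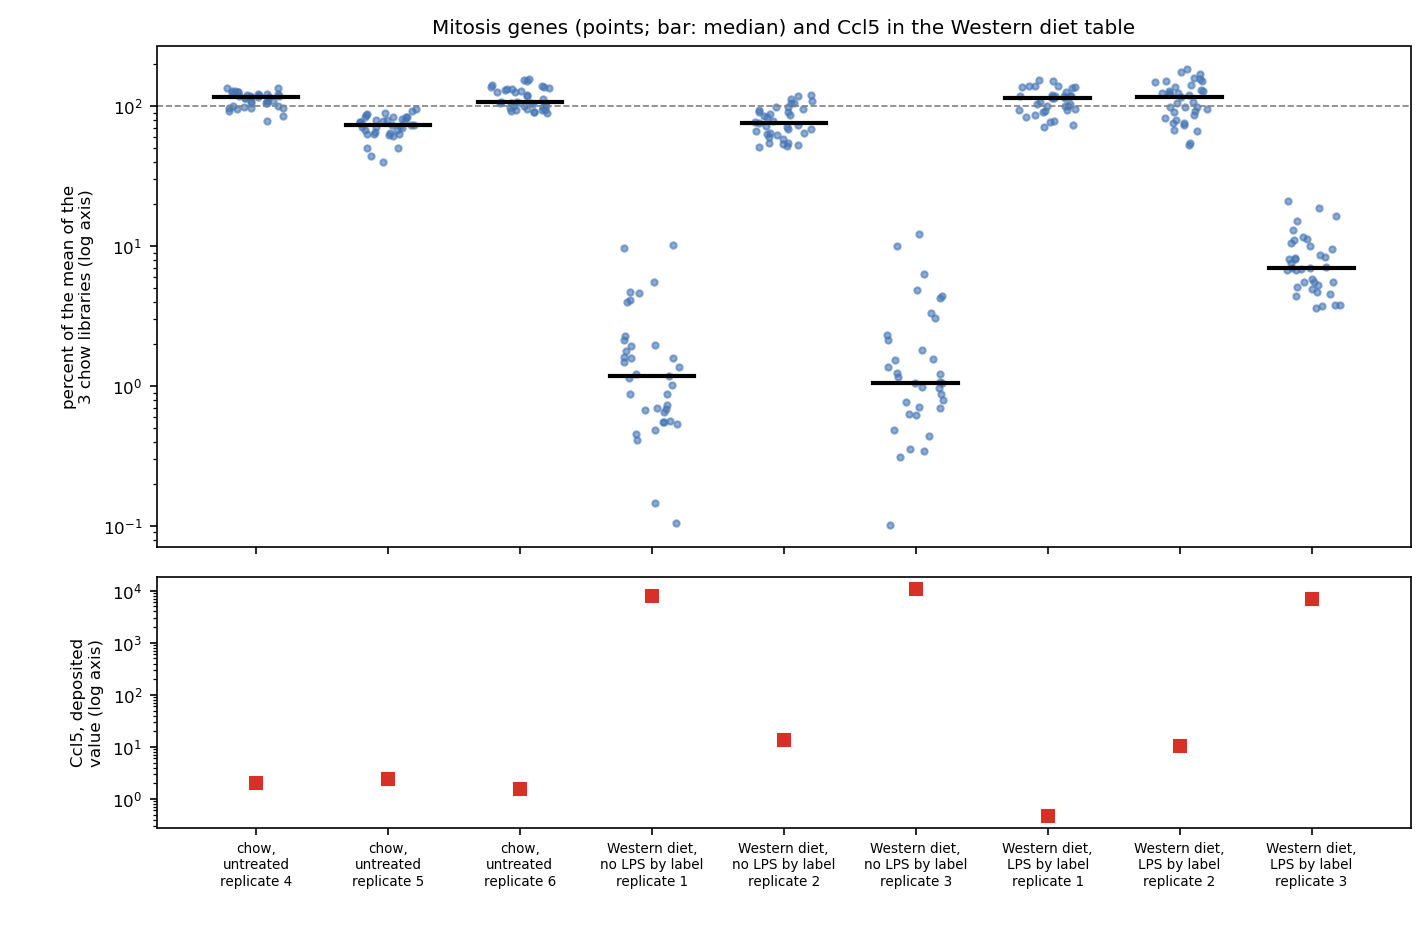
Upper panel, the 37 genes (points) as percent of the mean of the 3 chow libraries on a log axis, with the median as a bar, in the 9 libraries of the Western diet table; the points at 0 in replicate 3 without LPS by label are not drawn. Lower panel, Ccl5 in the same libraries on a log axis, with 7846, 10970 and 6905 in the libraries where the genes are low.

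The 3 low libraries were not alike in depth of fall. Replicate 3 labelled with LPS kept a median of 6.97%, with the 37 genes between 3.59% and 20.9%, while replicates 1 and 3 labelled without LPS kept about 1% with maxima of 10.2% and 12.3%. By role, centromere and kinetochore genes stood at 10.4% in the first of these, and partners of the anaphase-promoting complex at 4.15%. A normalization common to both tables is not stated, so these shares are not compared with those of the fatty acid table.

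Even without LPS the libraries differed in these genes. Among untreated chow libraries of the fatty acid table, the coefficient of variation over 3 libraries was 0.823% for Kif2c, 0.935% for Ccna2 and 0.938% for Ube2c, and 38.4% for Mki67, 37.8% for Kif23, 29.6% for Cenpf and 27.4% for Cenpe. The last 4 have annotated exon lengths of 7901 to 15433 bases, but Prc1, at 8225 bases, had a coefficient of 4.68%. Across the 37 genes, the log2 ratio of a library to the other 2 of its group had a Spearman correlation with exon length of -0.60, 0.36 and 0.48 in replicates 1 to 3, and of -0.47, -0.58 and 0.74 in replicates 4 to 6. The 37 points of a library share its RNA and its preparation, so these are descriptions. Mki67 stood at 15.1, 25.7 and 34.2, and at 12.1, 3.94 and 13.5 in replicates 4 to 6, and Top2a at 80.2, 69.1 and 155.9 in the latter. What this pattern follows was not tested.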

How the data were processed

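The deposited values are treated as a score, since neither the file headers nor the labels name a unit. Builds mm9 and mm10 and the tools HISAT2 2.0.5, Trim Galore 0.4.1, FastQC 0.11.5 and CASAVA 1.8.2 are named per the submitters' processing notes, and the quantification is not given in the sources used here. Coordinates equal GENCODE M21 (GRCm38) in 46773 of 50645 and 46772 of 50644 genes, and in 35 of the 37. Entries with displaced numbers were left out (36 and 35). Read counts were not used here, so depth is unknown.

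The genes reaching 1 in at least 3 libraries of a table (10476 and 10331) were fitted as log2(value + 1) with limma 3.58.1 (R 4.3.3), with a mean-variance trend and no block, all libraries of a table in the fit, and Benjamini-Hochberg adjustment. The tables were never fitted together. Alternatives were a pseudocount of 0.1, median-ratio scaling, a minimum of 5 or none, a fit on only the 6 libraries compared, each library left out, the replicate number as a block, and the 4 doubted libraries left out. Values are given per library for the highest 2 genes of each role when untreated, the extremes, and genes whose call differs from most. Of other lists, up to 4 genes with the smallest adjusted p are named, plus Cdkn1a, Foxm1, Mybl2 and Ccnd1. The 37 genes and all lists were chosen with earlier results of these data known.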

Additional observations from a re-analysis of the deposited data

How the results depend on the processing

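In each of the 3 comparisons with untreated cells, 37 of 37 genes were called lower under every alternative run, except that a minimum of 5 left 36 to test, all called. With a pseudocount of 0.1 their medians were -5.08, -5.60 and -4.64, and after median-ratio scaling, which shifts all genes, -3.81, -3.89 and -3.53. The median with fatty acid ran from -4.17 to -3.97 with a library left out. Fatty acid against LPS alone gave 10 lower with a pseudocount of 0.1, 3 lower and 0 higher with no filter, and 2 lower and 1 higher with only the 6 libraries compared, where 14 of the 37 passed the filter. With a library left out it gave 2 to 7 lower and 0 to 3 higher. TAK242 against fatty acid gave 10 higher with a pseudocount of 0.1, 2 with no filter and 0 to 5 with a library left out. Against LPS alone that range was 0 to 1. The medians of these 3 comparisons with a pseudocount of 0.1 were -0.40, 0.77 and 0.35. The cause of these shifts was not tested, but a pseudocount of 0.1 gives more weight to values under 1.

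By label, the Western diet table gave 0 to 37 lower without LPS against chow and 0 to 31 higher with against without LPS when a library was left out. The 37 and the 31 came without replicate 2 labelled without LPS, the only library of its group that went with its label. Without the 4 doubted libraries the medians were -0.33, -2.75 and -3.18. The median with LPS against chow ran from -1.53 to 0.19 with a library left out. Only the 250 bases before the start held a CHR in 10 of 31 promoters, and a CCAAT box in 25.

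Deviations from group means correlated at -0.081 to 0.200 between same-numbered libraries of the fatty acid table, and at -0.666, 0.681 and 0.761 for numbers 1, 2 and 3 of the Western diet table, so the numbers were not taken as pairs. With the replicate block, TAK242 against fatty acid gave 3 higher, fatty acid against LPS alone 4 lower and 3 higher, and the falls against untreated cells 37 of 37.

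Values under 1 are a limit: 16 to 27 of the 37 genes were under 1 in each LPS-treated library of the fatty acid table, where 1 value may rest on few reads and depth is unknown.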

Other observations

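In the fatty acid comparison, 8 of 77 other mitosis and segregation genes were called lower than with LPS alone and 9 higher, beside 15.3% and 21.8% of all genes. Among them Trip13, a checkpoint remodelling gene, went from 1.74 ± 0.549 to 0.637 ± 0.134 (-0.73, adjusted p = 0.00297), Gtse1, a microtubule-binding gene, from 1.06 ± 0.263 to 0.430 ± 0.0533 (-0.52, adjusted p = 0.00515), and Ckap5, a microtubule polymerase gene, from 8.81 ± 0.905 to 14.3 ± 0.796 (0.64, adjusted p = 0.0106). Ccnd1 was higher with fatty acid than with LPS alone, at 7.99 ± 0.547 against 3.75 ± 1.62 (0.98, adjusted p = 0.00822), and Cdkn1a stood at 15.9 ± 4.39 against 27.6 ± 5.98 (adjusted p = 0.201). With TAK242 added to fatty acid, 5 of the 77 were called higher and 0 lower, beside 3.01% of all genes called higher, among them the cytokinesis gene Shcbp1, from 0.10 ± 0.0284 to 0.717 ± 0.112 (0.64, adjusted p = 0.0278). Adjusted p-values are limma's over all genes, and SD is over 3 libraries.

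The libraries of the Western diet table that are high in the 37 genes were not alike in macrophage markers. Adgre1 and Csf1r stood at 519.0 to 601.2 and 531.3 to 623.1 in the chow libraries and at 531.3 and 480.4 in replicate 2 labelled without LPS, but at 214.2 and 212.8 in replicate 1, and 267.2 and 229.6 in replicate 2, labelled with LPS. Cd68 stood the other way, at 545.2 to 591.1 in chow and 656.4 in replicate 2 labelled without LPS, but at 1186 and 1276 in replicates 1 and 2 labelled with LPS. The untreated libraries of the fatty acid table stood at 344.9 to 367.5 for Adgre1, 232.8 to 250.6 for Csf1r and 1158 to 1221 for Cd68. The tables may differ in normalization, so these are values with no comparison.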
